A study of Mus musculus with 11 samples.

Results

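Expression of 8 costimulatory and checkpoint ligands was examined in mouse LSEC, the liver sinusoidal endothelial cells that form the fenestrated wall of the hepatic capillaries. The 8 genes were Cd80, Cd86, Cd40, Icosl, Cd274, Pdcd1lg2, Cd276 and Lgals9, out of 19505 genes with a symbol on the array. They were chosen by symbol and, where a symbol had several transcript clusters (the array's unit of a gene), by the highest level averaged over all arrays. Each of the 8 had 1 cluster, so the level left no choice to make. Total RNA was measured on 11 Mouse Clariom S arrays, 6 from wild type and 5 from autophagy-deficient preparations. All mice carried floxed Atg5 alleles (Atg5lox/lox), were 8 weeks old at the start and ate a high fat diet for 2 weeks. The autophagy-deficient mice additionally carried VE-cadherin-Cre, which expresses the recombinase from an endothelial promoter, so other liver cells in a preparation would keep the gene unless the promoter had been active in their ancestry. There was no group on another diet, and the way the cells were isolated is not given in the sources used here. Each array is titled as a biological replicate, but separate animals or pools are not named, so each p-value reflects the variation among these preparations, which may be technical.

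A T cell needs a costimulatory signal beside its antigen receptor to be fully activated, and the molecules that give or withhold that signal sit on the cell that presents the antigen. CD80 and CD86 bind the activating receptor CD28 and the inhibitory receptor CTLA-4, ICOSL binds ICOS, and CD40 receives CD40L from activated T cells and turns on NF-kB. PD-L1 (Cd274) and PD-L2 (Pdcd1lg2) inhibit T cells through PD-1, galectin-9 (Lgals9) binds TIM-3 among other glycoproteins, and B7-H3 (Cd276) has been described as both stimulatory and inhibitory. LSEC are known to present antigen and to favour T cell tolerance, in part through PD-L1, while Kupffer cells, the resident macrophages, also carry CD80, CD86 and CD40.

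LSEC and endothelial markers were read at high levels in the preparations. All 16 LSEC and endothelial markers lay above the array's antigenomic background (the mean of 23 probe sets that match no mouse sequence, 4.67 to 5.17 on the log2 scale) on all 11 arrays. Averaged over the markers, wild type arrays stood at 11.99 ± 0.12 (SD, n = 6) and autophagy-deficient arrays at 11.99 ± 0.13 (SD, n = 5). All 20 hepatocyte markers lay above that background on all 11 arrays too, so a reading above it does not show purity. The hepatocyte gene Alb averaged 12.70 in wild type and 12.23 in autophagy-deficient arrays. Atg5 itself read 7.38 to 7.59 in wild type and 7.48 to 7.90 in autophagy-deficient arrays (difference 0.10, SE 0.10). The position of its probes relative to the floxed exon is unknown here, so the reading is no check of genotype, and directions rest on the labels. Macrophage and hepatocyte markers also differed between the groups and are given beside the ligands. Intron control probes averaged 5.75 to 5.96 on wild type arrays 1 and 6 and autophagy-deficient arrays 3 and 4, and 5.05 to 5.38 on the others. Over all 22206 clusters the median log2 difference was -0.02.

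Of the 8 ligands, Cd86, Cd80 and Icosl were higher in the autophagy-deficient arrays and 0 were lower by the study's own rule, which asks for a 1.5-fold difference and an unadjusted p no higher than 0.05 (limma's here). Cd40 was higher by less than 1.5-fold. The remaining 4 did not meet either part of the rule. The rule called 1.03% of all clusters, 0.671% as higher and 0.356% as lower, beside 3 calls among these 8 genes. The genotype differences of Cd86 and Cd40 were already known when the genes were listed. All 8 ligands and the pathway and marker lists were chosen with earlier results of these data known. The counts of ligands and listed genes, and the p-values of ligands and marker means below, are therefore no independent test. In the limma fit 0 of 22206 clusters passed an adjusted p of 0.05, while 1419 (6.39%) had an unadjusted p no higher than 0.05, 4 of the 8 ligands among them. All 4 were higher, against 2.61% of clusters higher at that p. Of the 8 differences 6 were positive and 2 negative; their median was 0.36 against -0.02 for all clusters. Groups did not overlap for 0.473% of all clusters and for 0 of the ligands.

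**Figure D1:**
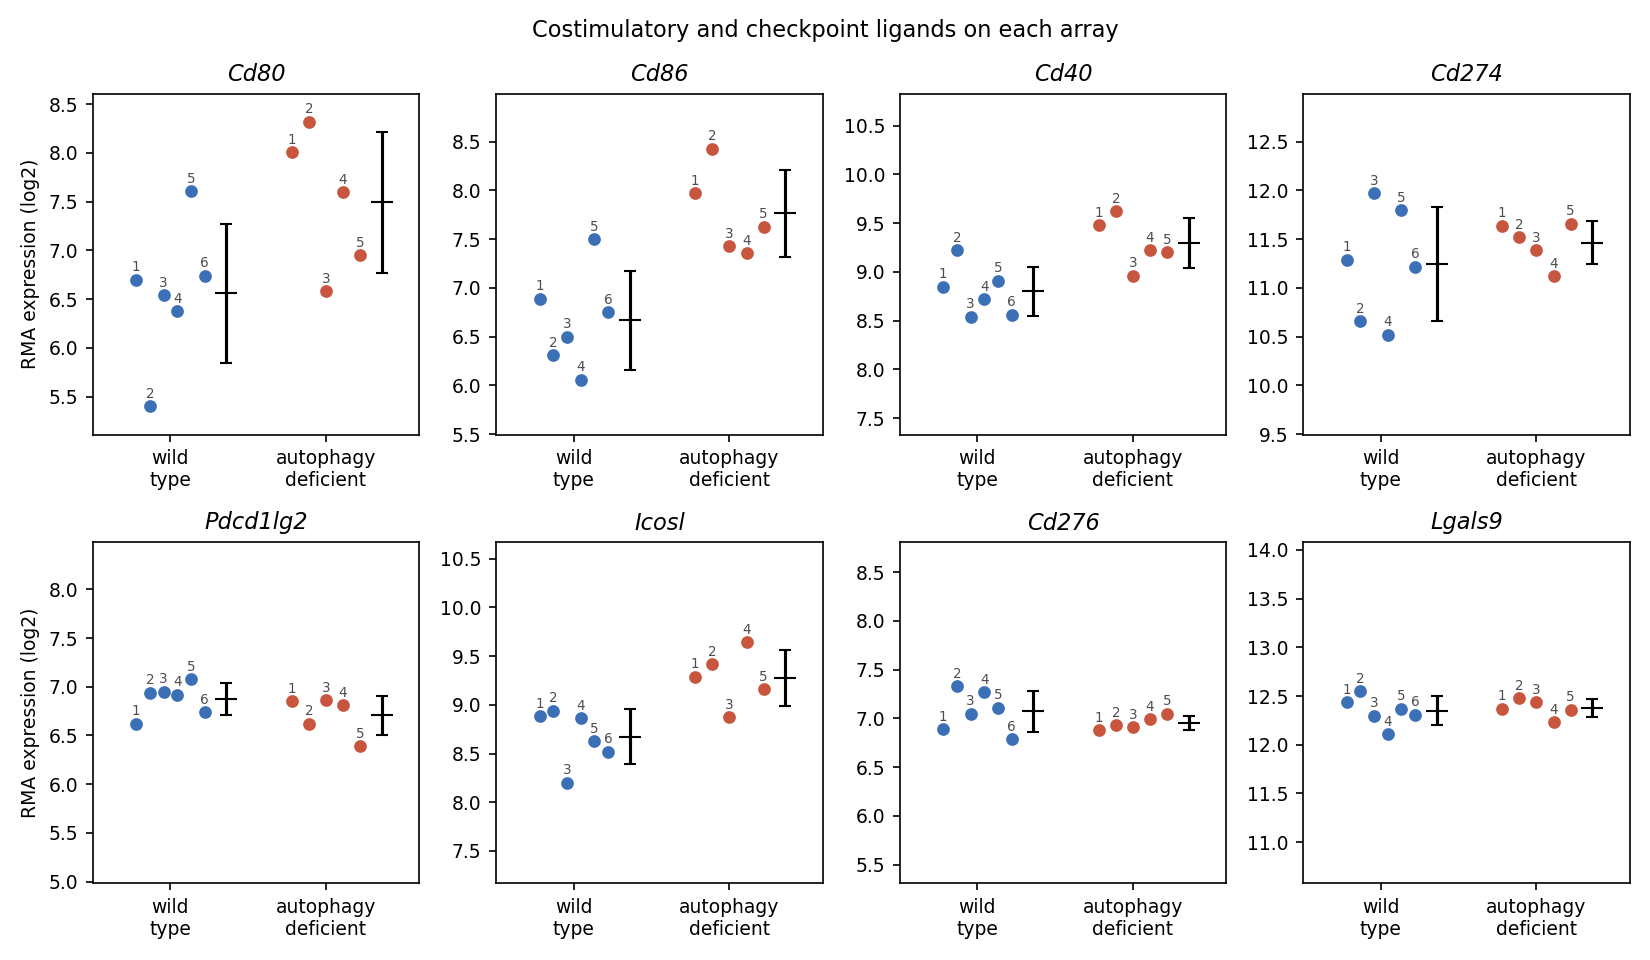
RMA expression (log2) of the 8 ligands on every array, numbered by replicate, with the mean and SD of each group (6 wild type, 5 autophagy deficient) as bars; every panel spans the same log2 range. Cd86, Cd80, Cd40 and Icosl sit higher in the autophagy-deficient arrays with some overlap, and the other 4 genes overlap widely.

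Cd86 had the largest difference of the 8. In the 6 wild type arrays its log2 level ran from 6.06 through a median of 6.625 to 7.5. The autophagy-deficient arrays read 7.97, 8.43, 7.43, 7.36 and 7.63 (arrays 1 to 5). Wild type array 5, at 7.5, was the only wild type value inside the autophagy-deficient range, and the other 5 lay below it. The means were 6.67 ± 0.50 (SD, n = 6) and 7.76 ± 0.44 (SD, n = 5), a 2.14-fold difference (log2 1.10, SE 0.25, exact permutation p = 0.013, limma adjusted p = 0.765). It met the study's rule with any 1 array left out, with log2 differences from 0.93 to 1.26.

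Cd80, which shares CD28 and CTLA-4 with Cd86, was more scattered. Wild type arrays ran from 5.4 through a median of 6.62 to 7.61. Autophagy-deficient arrays read 8.01, 8.32, 6.58, 7.60 and 6.95. The groups overlapped: autophagy-deficient array 3 lay among the wild type values, and wild type array 5 lay above 3 of the autophagy-deficient arrays. The means were 6.56 ± 0.71 (SD, n = 6) and 7.49 ± 0.72 (SD, n = 5), a 1.91-fold difference (log2 0.93, SE 0.37, limma adjusted p = 0.765). It met the study's rule by limma's p, while the exact permutation p was 0.0519. Leaving out wild type array 2 (0.70), autophagy-deficient array 1 (0.80) or autophagy-deficient array 2 (0.72) ended the call, as did array weights (0.58) and, at the same difference, an ordinary variance.

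Cd80 and Cd86 were not shown to differ by unequal amounts, nor by equal ones. The within-array log2 ratio of Cd86 over Cd80 averaged 0.11 ± 0.43 (SD, n = 6) over wild type arrays against 0.27 ± 0.47 (SD, n = 5) over autophagy-deficient arrays, a change of 0.17 (exact permutation p = 0.606, adjusted over 2 pairs 0.606). With each array left out the change ran from 0.02 to 0.33. Both genes lay between weak and clear signal: they were above the mean antigenomic background on all 11 arrays, but above its 95th percentile (7.78 to 8.66) on 1 array, autophagy-deficient array 2. RMA compresses differences at such levels.

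Icosl, the ligand of ICOS on activated and follicular T cells, was the third gene called. Wild type arrays ran from 8.20 through a median of 8.745 to 8.94. Autophagy-deficient arrays read 9.29, 9.42, 8.87, 9.64 and 9.16. Of these 5 arrays 4 lay above every wild type array, and array 3 fell inside the wild type range. The means were 8.67 ± 0.28 (SD, n = 6) and 9.28 ± 0.29 (SD, n = 5), a 1.52-fold difference (log2 0.60, SE 0.16, exact permutation p = 0.013, limma adjusted p = 0.765). The fold is just past 1.5, and the call ended when wild type array 3 (0.51), wild type array 6 (0.57), autophagy-deficient array 2 (0.57) or autophagy-deficient array 4 (0.51) was left out, and when quantile normalization was repeated (0.50).

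Cd40, the receptor through which helper T cells license presenting cells, stood just under the fold threshold. Wild type arrays ran from 8.54 through a median of 8.785 to 9.22. Autophagy-deficient arrays read 9.48, 9.62, 8.96, 9.22 and 9.20. Of 6 wild type arrays 5 lay below all autophagy-deficient arrays, and wild type array 2 at 9.22 lay among them. The means were 8.80 ± 0.25 (SD, n = 6) and 9.30 ± 0.26 (SD, n = 5), a 1.41-fold difference (log2 0.50, SE 0.15, exact permutation p = 0.0173, limma adjusted p = 0.765). Cd40 was above the 95th percentile of the antigenomic background on all 11 arrays and Icosl on 10.

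The sequences upstream of Cd80 and Icosl are shown because both genes were called and both had an entry among the RefSeq promoter windows of build GRCm38.p6, which matched 6 of the 8 ligands. The 250 bases before the annotated start are given 5′ to 3′ on the gene's strand, which is the plus strand for both. Capitals mark matches to GGGANNNNCC, a loose form of the NF-kB site, and to TGANTCA, a loose form of the AP-1 site, searched on both strands. The windows lie at chr16:38458683-38458932 for Cd80 and chr10:78069118-78069367 for Icosl.
Cd80: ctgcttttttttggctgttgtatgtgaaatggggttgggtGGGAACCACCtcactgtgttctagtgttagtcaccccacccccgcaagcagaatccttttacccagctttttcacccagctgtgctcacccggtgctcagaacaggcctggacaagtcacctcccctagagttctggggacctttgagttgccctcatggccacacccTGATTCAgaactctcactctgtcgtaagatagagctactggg
Icosl: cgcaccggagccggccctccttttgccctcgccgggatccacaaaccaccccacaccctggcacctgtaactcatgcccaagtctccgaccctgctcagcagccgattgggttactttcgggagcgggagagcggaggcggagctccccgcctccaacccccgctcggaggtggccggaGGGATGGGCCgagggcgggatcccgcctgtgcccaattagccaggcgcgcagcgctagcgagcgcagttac
The Cd80 window held GGGAACCACC, which starts 210 bases before the annotated start, and TGATTCA, which starts 42 bases before it. The Icosl window held GGGATGGGCC from 71 bases before the start. The NF-kB-like letters were in 4 of the 6 ligand windows (Cd80, Icosl, Lgals9 and Pdcd1lg2) and in 17.6% of all 32851 windows. The AP-1-like letters were in 1 ligand window and 6.75% of all. The interferon gamma activated site TTCNNNGAA was in 0 of 6 and 7.02% of all, and the interferon response core GAAANNGAAA in the Lgals9 window alone and in 2.98% of all. Lgals9 and Pdcd1lg2 held the NF-kB-like letters without meeting the rule. Cd86 and Cd40 had no window, so the matches cannot decide whether called and uncalled ligands differ in them. A match is a description of letters and not a bound site.

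Cd274, which encodes the main inhibitory ligand of PD-1, was read well above background and did not meet the rule. Wild type arrays ran from 10.52 through a median of 11.255 to 11.97. Autophagy-deficient arrays read 11.64, 11.52, 11.39, 11.12 and 11.66. All 5 lay within the wild type range, which was 1.45 wide on the log2 scale against 0.54. The means were 11.24 ± 0.58 (SD, n = 6) and 11.47 ± 0.22 (SD, n = 5), a difference of 0.22 with a 95% interval from -0.30 to 0.75 (exact permutation p = 0.446). The interval reaches past a fold of 1.5, so a change of that size is not shown to be absent.

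Pdcd1lg2, the other ligand of PD-1, lies next to Cd274 on chromosome 19 with no protein-coding gene between them in the RefSeq annotation. Wild type arrays ran from 6.62 through a median of 6.93 to 7.08. Autophagy-deficient arrays read 6.85, 6.62, 6.86, 6.81 and 6.39. All 5 lay below the wild type mean, but only array 5 lay below the wild type range. The difference was -0.17 (95% interval -0.43 to 0.09, exact permutation p = 0.177), and the gene never passed the 95th percentile of the background. The within-array ratio of Cd274 over Pdcd1lg2 changed by 0.39, from 4.37 ± 0.58 (SD, n = 6) to 4.76 ± 0.37 (SD, n = 5), which was within the spread between arrays (exact permutation p = 0.238, adjusted over 2 pairs 0.476).

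Lgals9, which encodes galectin-9, differed least. Wild type arrays ran from 12.11 through a median of 12.34 to 12.55, and autophagy-deficient arrays read 12.37, 12.48, 12.44, 12.23 and 12.36, all inside that range. The difference was 0.03 (95% interval -0.19 to 0.25, exact permutation p = 0.775), and its interval lies inside a fold of 1.5 in either direction. It turned to -0.02 without wild type array 4.

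Cd276, which encodes B7-H3, ran from 6.79 through a median of 7.08 to 7.33 in wild type. It read 6.88, 6.93, 6.91, 6.99 and 7.05 in autophagy-deficient arrays, all inside the wild type range and within 0.17 of each other. The difference was -0.12 (95% interval -0.37 to 0.13, exact permutation p = 0.268). Like Pdcd1lg2, it lay above the mean background but below its 95th percentile on all 11 arrays, so neither gene is shown to be expressed clearly above background.

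**Figure D2:**
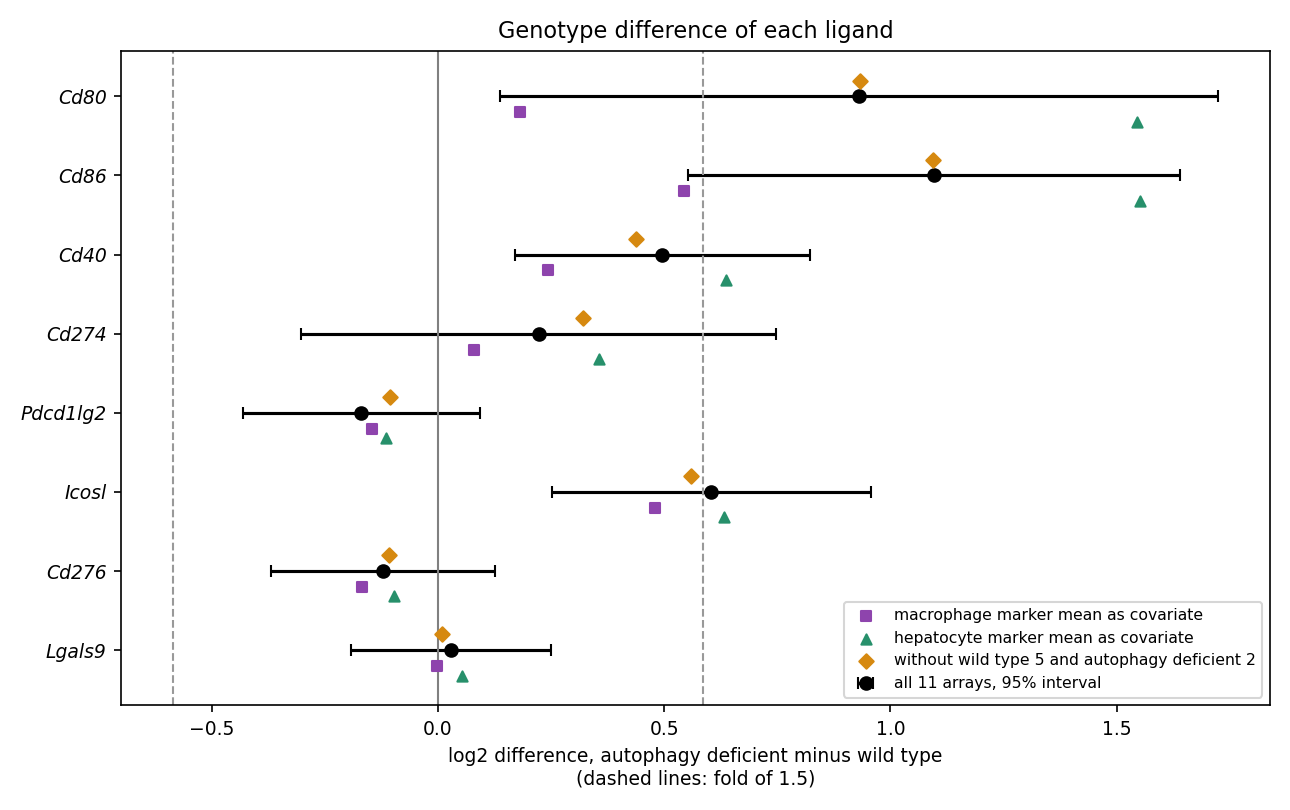
Log2 difference of each ligand between genotypes with its 95% interval in the limma fit (black), and the same difference with the macrophage marker mean or the hepatocyte marker mean as a covariate, or without wild type array 5 and autophagy-deficient array 2. Cd86 moved from 1.10 to 0.54 and Cd80 from 0.93 to 0.18 with the macrophage mean, and without the pair of arrays they were 1.09 and 0.93, a setting in which the macrophage marker median was still 0.92.

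The autophagy-deficient arrays also read higher for macrophage markers. All 19 measured macrophage markers lay above 0 (median 1.08), 14 met the rule, and their mean ran from 7.18 to 8.34 in wild type and from 7.68 to 9.88 in autophagy-deficient arrays (exact permutation p = 0.0173, 0.156 adjusted over 9 array measures). All were above the mean background on all arrays except Aif1, which was below it on 4 of 6 wild type arrays. In such RNA from mixed preparations, more cells of a type and more RNA per cell cannot be told apart. With the macrophage mean as a covariate 0 ligands met the rule: Cd86 was 0.54, Icosl 0.48, Cd40 0.24 and Cd80 0.18. In that fit Cd86 and Icosl missed the fold part of the rule and met its unadjusted limma part narrowly. Cd40 and Cd80 met neither part. Wild type array 5 and autophagy-deficient array 2 had the highest macrophage means of their groups, and without both Cd86 (1.09) and Cd80 (0.93) met the rule and Icosl (0.56) did not. The macrophage marker difference was still there without them, with a median of 0.92 against 1.08, so this setting does not take the macrophage signal out. Without autophagy-deficient array 2 alone that median was 0.72. How far macrophage RNA sets the difference of Cd80 and Cd86 was not tested beyond these values.

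**Figure D3:**
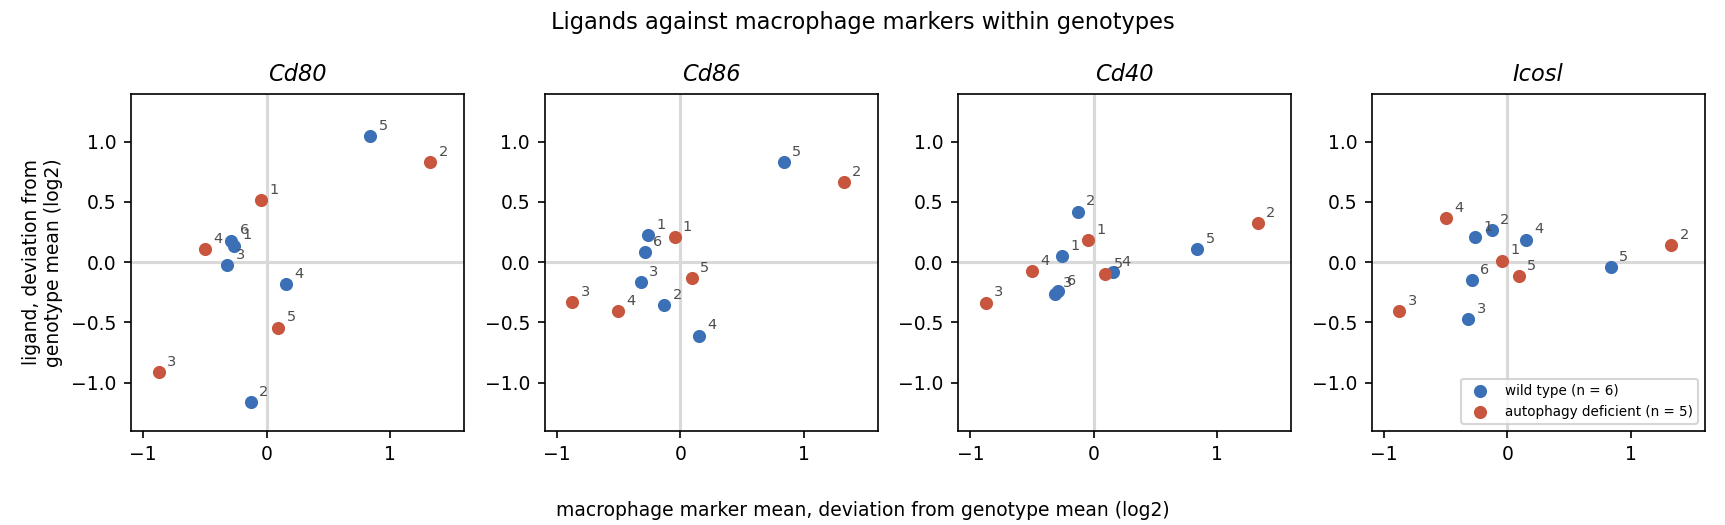
Deviation of 4 ligands from their genotype mean (y axis, log2) against the deviation of the macrophage marker mean (x axis, log2), 1 point for each of the 11 arrays, numbered by replicate. Wild type array 5 and autophagy-deficient array 2 are high on both axes for Cd80 and Cd86, and for Icosl both lie near 0 on the y axis.

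Within genotypes, Cd86 and Cd80 followed the macrophage mean mainly through those 2 arrays. After subtraction of the genotype means, Pearson r over 11 arrays was 0.710 for Cd86 (permutation p = 0.0169 within genotypes; Spearman rho = 0.464, permutation p = 0.165) and 0.643 for Cd80 (permutation p = 0.0417; rho = 0.445, permutation p = 0.197). Without the 2 arrays r was 0.050 and 0.185, so both relations rest on them. For Cd40 r was 0.609 (permutation p = 0.0569; rho = 0.60, permutation p = 0.0772) and 0.471 without them. For Icosl r was 0.272 (permutation p = 0.459; rho = 0.191, permutation p = 0.60) and 0.361 without them. Cd276 ran against the intron control mean (r = -0.729, permutation p = 0.0414, and rho = -0.645, permutation p = 0.0614). Without wild type arrays 1 and 6 that r was -0.383. Of 40 relations between 8 ligands and 5 array measures the smallest adjusted p was 0.351.

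Dendritic cells, which carry CD80, CD86 and PD-L2 at high levels, gave markers on both sides of 0. Of 12 dendritic cell markers 6 lay above 0 and 6 below (median -0.006), 0 met the rule, and their mean ran from 6.89 to 7.19 in wild type and 6.83 to 7.17 in autophagy-deficient arrays. The defining genes Xcr1 and Flt3 were above the mean background on 3 of 11 arrays each. With the dendritic mean as a covariate, added after the data were seen, Cd80 (0.94), Cd86 (1.10) and Icosl (0.61) met the rule. That mean averaged 7.02 in wild type and 7.02 in autophagy-deficient arrays, so a fit with it could hardly move a genotype difference. The kept calls therefore say nothing on dendritic cell RNA, whose part in these differences was not tested. Cd80 followed the dendritic mean within genotypes (r = 0.733, permutation p = 0.0202, adjusted 0.351; rho = 0.655, permutation p = 0.0489), with r = 0.490 without wild type array 5 and autophagy-deficient array 2.

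Hepatocyte markers were lower in the autophagy-deficient arrays. All 20 lay below 0 (median -0.84), 12 met the rule, and their mean ran from 8.77 to 10.09 in wild type and from 7.97 to 9.42 in autophagy-deficient arrays. With that mean as a covariate the ligand differences were larger: Cd86 was 1.55 (limma adjusted p = 0.0388, against 0.0388 to 0.998 over 25 alternatives), Cd80 1.55, Cd40 0.64 and Icosl 0.63, and all 4 met the rule. With the macrophage and hepatocyte means together 0 did: Cd86 was 0.85, past the fold but with a limma p of 0.151, Cd80 0.57, Icosl 0.15 and Cd40 0.03. Within genotypes Cd86 followed the hepatocyte mean with r = 0.649 (permutation p = 0.0439, adjusted 0.351) and rho = 0.455 (permutation p = 0.187). For Cd80 r was 0.583 (permutation p = 0.0798). Without wild type array 5 and autophagy-deficient array 2 r was -0.153 for Cd86 and 0.009 for Cd80, so both relations rest on those arrays. The part of hepatocyte RNA in these differences was not tested further.

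Among themselves some ligands varied together across arrays before adjustment. After subtraction of the genotype means, Cd80 and Cd86 varied together over the 11 arrays (r = 0.792, permutation p = 0.00977; rho = 0.782, permutation p = 0.0117), and r was 0.838 without wild type array 2 and autophagy-deficient array 3. Cd40 and Icosl also varied together (r = 0.658, permutation p = 0.0417; rho = 0.691, permutation p = 0.0319; 0.610 without 2 arrays). Cd274 and Icosl varied in opposite directions (r = -0.639, permutation p = 0.0385; rho = -0.582, permutation p = 0.0883; -0.437 without 2 arrays). For Cd86 and Cd274 r was 0.612 (permutation p = 0.0639) and rho 0.682 (permutation p = 0.0418), with r = 0.599 without 2 arrays. None of the 28 pairs passed after adjustment (smallest adjusted p = 0.274).

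The genes whose deviations from the genotype means were most like those of each ligand were sought among 17964 other symbols, as a description over 11 arrays. For Cd80 they were Igsf6 (r = 0.972), an immunoglobulin family gene of myeloid cells, Rnf149 (0.962) and Cybb (0.936), the phagocyte NADPH oxidase subunit. For Cd86 they were Spic (0.943), a transcription factor of iron-handling macrophages, Apobec1 (0.931) and Ugt2a3 (0.928). For Cd274 they were Tnfsf10 (0.961), which encodes the death ligand TRAIL, Ube2e1 (0.953) and Vta1 (0.945). For Cd40 they were Ftmt (0.932), Mrpl46 (0.925) and the MHC class I gene H2-D1 (0.914), and for Icosl Mrps30 (0.924), Prss30 (0.918) and H2-T3 (0.891). Those of Cd276 were led by Zic2 (0.971), Rtbdn (0.962) and 1700016K19Rik (0.958), those of Lgals9 by Cfap221 (0.919), Rnf121 (0.890) and Nprl2 (0.884), and those of Pdcd1lg2 by Serpina9 (0.888), Bpifb6 (0.882) and Myh6 (0.870). A highest value among so many genes on 11 arrays is high in any case. Spic is the 1 gene of these 24 that is among the macrophage markers listed here, a list that does not hold Igsf6 or Cybb. The genotype differences were 1.24 for Igsf6, 0.78 for Rnf149 and 1.44 for Cybb. They were 1.34 for Spic, 0.37 for Apobec1 and -0.05 for Ugt2a3.

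Receptors of T cells for these and other costimulatory and checkpoint ligands did not pass the 95th percentile of the background on any array. The list of these receptors has 11 genes and also holds Cd40lg, which encodes a ligand and not a receptor. Of the 11 genes, 6 (Cd28, Ctla4, Icos, Pdcd1, Cd40lg and Havcr2) encode partners of the 8 ligands. The other 5 (Btla, Tigit, Lag3, Cd226 and Cd96) have other partners. In this list 8 genes lay above 0 and 3 below (median 0.04), and 0 met the rule. Cd40lg, which encodes the ligand of CD40, and Btla were below the mean background on all 11 arrays, and Ctla4 was above it on 4. Havcr2, which encodes TIM-3 and is also expressed by macrophages, differed by 0.48 (SE 0.26; 0.30 without wild type array 2), Icos by 0.31 (SE 0.17) and Cd28 by 0.13 (SE 0.15; 0.05 to 0.26 with single arrays left out). Markers of T and NK cells lay mostly above 0 (11 of 12, median 0.14) with 0 meeting the rule, and their means overlapped, from 5.54 to 6.07 in wild type and 5.56 to 6.5 in autophagy-deficient arrays.

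Other ligands and receptors of T cell control on presenting cells lay on both sides of 0. Of 25 measured genes 13 lay above 0 and 12 below (median 0.02), and 0 met the rule. The TNF family ligand Tnfsf15 differed by 0.54 (SE 0.23), from 7.27 to 8.21 in wild type and 7.78 to 9.09 in autophagy-deficient arrays, and by 0.34 without autophagy-deficient array 4. Sirpa, the inhibitory receptor for CD47 on myeloid cells, differed by 0.38 (SE 0.23), and by 0.18 without autophagy-deficient array 2. Cd70 differed by -0.26 (SE 0.12) but never read above the mean background on the 11 arrays, so no expression can be read from it. Ido1, the tryptophan-degrading enzyme that restrains T cells, was below that background on all arrays too.

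Genes downstream of CD40 were mostly on the higher side by small amounts. Of 18 measured signalling genes 17 lay above 0 and 1 below (median 0.14), and 0 met the rule. The NF-kB inhibitor Tnfaip3 differed by 0.23 (SE 0.10), the adaptor Traf5 by 0.39 (SE 0.17) and the kinase subunit Ikbkg by 0.29 (SE 0.14). Macrophage markers moved with this list too: with their mean as a covariate its median was 0.02 and Traf5 0.03, and Traf5 was 0.22 without autophagy-deficient array 2. Of 16 genes of the interferon gamma pathway and PD-L1 control, 12 lay above 0 and 4 below (median 0.06), and 0 met the rule. The receptor chain Ifngr1 ran from 8.76 to 8.95 in wild type and read 9.09, 9.37, 9.0, 9.01 and 9.04 in autophagy-deficient arrays, with no overlap and a difference of 0.25 (SE 0.10). The interferon-induced GTPase Gbp2 differed by 0.33 (SE 0.17) and Ciita, the master regulator of MHC class II genes, by 0.25 (SE 0.14), or 0.14 without autophagy-deficient array 2. With the macrophage mean as a covariate the median of these 16 genes was -0.05.

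Genes of MHC class II presentation, the antigen signal that the ligands accompany, lay above 0 in 9 of 10 cases (median 0.80). Ctss, a protease that trims the invariant chain, was 2.01-fold higher and Ifi30, a lysosomal thiol reductase, 1.99-fold higher by the rule. Leaving out 1 array ended the Ctss call in 6 of 11 cases and the Ifi30 call in 7 of 11, and array weights and an ordinary variance ended both. H2-Aa differed by 0.78 (SE 0.41), and none of the H2 genes met the rule. Without autophagy-deficient array 2 the median of the 10 genes was 0.44, H2-Aa 0.49, Ctss 0.70 and Ifi30 0.68. Each of the 3 had 1 wild type array above the autophagy-deficient mean and 4 of 5 autophagy-deficient arrays above the wild type mean. Macrophage markers moved with these genes: with their mean as a covariate Ctss turned to -0.20, Ifi30 to -0.30 and H2-Aa to -0.33.

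**Figure D4:**
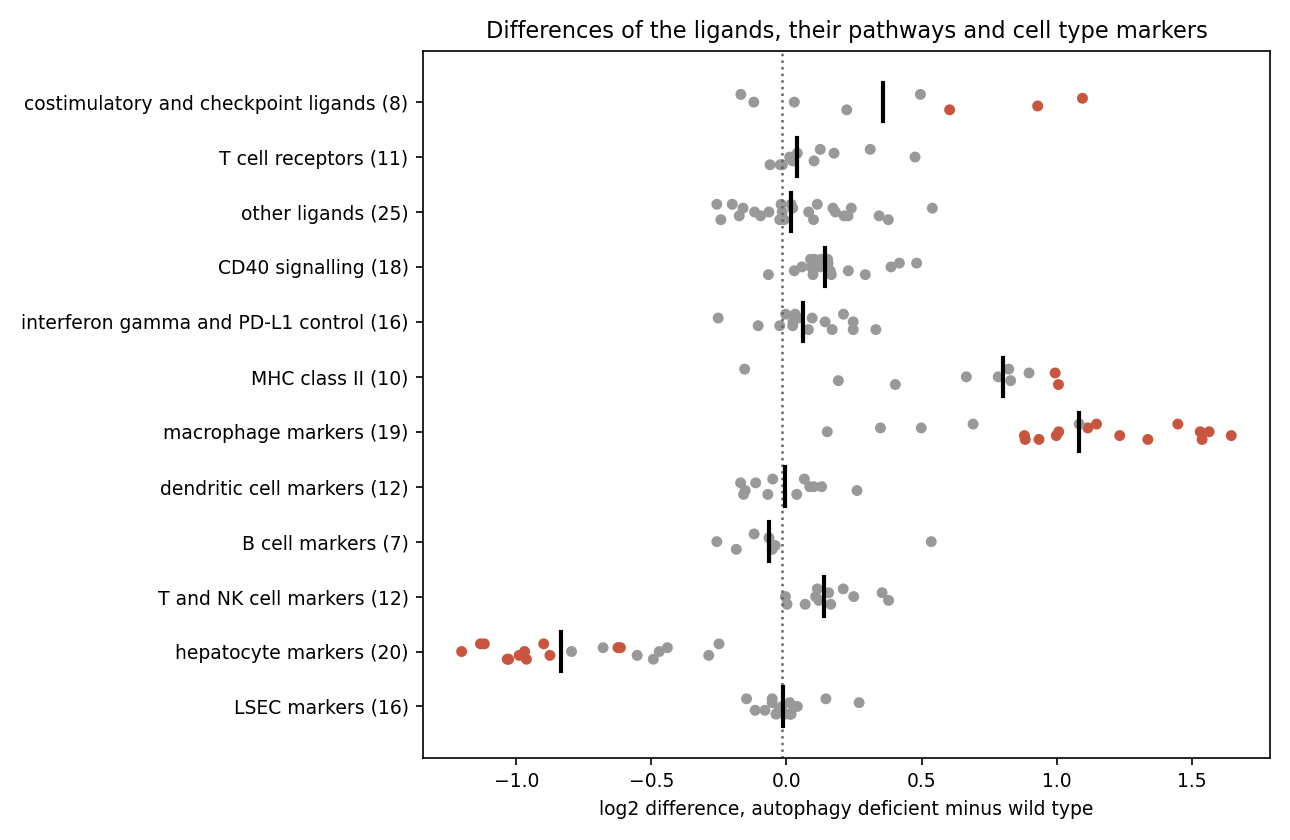
Log2 difference of every measured gene in 12 lists (points; red where the study's rule was met), with the list median (black bar), the number of genes in brackets and the median of all clusters (dotted line). The ligands spread from -0.17 to 1.10, LSEC and dendritic cell markers centre near 0, macrophage markers lie above 0 and hepatocyte markers below.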

How the data were processed

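RNA of 6 wild type and 5 autophagy-deficient LSEC preparations was measured on Mouse Clariom S arrays from 100 ng per sample, grouped by their titles. The submitters' processing notes name Affymetrix Expression Console and RMA. RMA corrects background, equalizes the distributions of arrays and summarizes probes, so a shift common to most genes is lost. The authors' deposited values are log2 values with 2 decimals, the scale being read from their range. Versions and genome build are not given in the sources used here, and scanner files were not used. Control rows (6640) were left out and 22206 clusters tested. The platform annotation named 19572 clusters with 1 symbol, 0 with several and 2634 with none. The symbols of all 8 ligands matched RefSeq through their gene identifiers.

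The genotype contrast was fitted in limma 3.58.1 under R 4.3.3 (no covariate, Benjamini-Hochberg adjustment over all clusters), tested on simulated data, and single genes with two-sided exact permutation tests over 462 splits in SciPy 1.17.1, whose smallest p is 0.0043. The study names no test for its rule, so limma's p was used. Correlations were permuted within genotypes (86400 orders). The ligands, the pathway and marker lists and the naming rule were chosen with earlier results of these data known. Named were the 8 ligands, the 3 genes of smallest p in each of 5 pathway lists, and the 3 genes most like each ligand, without predicted genes and olfactory receptors; Xcr1, Flt3, Cd40lg, Btla, Ctla4, Tigit, Lag3, Cd226, Cd96, Pdcd1, Ido1, Aif1 and the genes under other observations were named after their values were seen. Some listed genes were not analysed here. Precision is limited by the number of arrays. Alternatives covered arrays left out, a replicate block, normalization, array weights, variance models, dim clusters and covariates. No ligand had a second cluster, so averaging clusters of a symbol gave no alternative.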

Additional observations from a re-analysis of the deposited data

How the results depend on the processing

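Over 25 alternatives and 8 ligands, 176 of 200 values kept their direction and side of the rule, 19 no longer met it, 2 newly met it and 3 turned. The number of ligands meeting the rule (3) was 1 with a replicate block, 0 with the macrophage mean and 0 with both means as covariates, 4 with the hepatocyte mean and 4 without the 4 arrays of high intron controls (Cd40 added in both), and 1 to 3 with single arrays left out; without autophagy-deficient array 2 it was 1, Cd86. The clusters called by the study's rule (228) numbered 1616 with the macrophage mean, 648 with the hepatocyte mean, 457 with both, 123 with an ordinary variance, 359 without the 4 arrays of high intron controls, and 171 to 314 with single arrays left out. Clusters past an adjusted p (0 in limma) were 24 with the macrophage mean, 61 with the hepatocyte mean (1 ligand, Cd86), 1 with the dendritic mean, 1 without the highest macrophage array of each genotype, and 0 to 1 with single arrays left out. List medians near 0 changed sign with single arrays left out for T cell receptors (-0.017 to 0.090), other ligands (-0.026 to 0.072), dendritic cells (-0.061 to 0.059), LSEC (-0.065 to 0.006) and neutrophils (-0.252 to 0.211); T and NK cells ran from 0.019 to 0.252, stellate cells from 0.233 to 0.506 and interferon gamma genes from 0.051 to 0.12. At the 95th percentile of background 3 ligands, not 8, were above it on all arrays. Differences that turned were with the macrophage mean, the Lgals9 log2 difference (-0.002), Sirpa (-0.22), Ciita (-0.055), Ctss (-0.20), Ifi30 (-0.30) and H2-Aa (-0.33); with both means, Pdcd1lg2 (0.23), Tnfsf15 (-0.14), Sirpa (-0.14), Ifi30 (-0.17) and H2-Aa (-0.18); with the hepatocyte mean, Cd28 (-0.055); and Lgals9 over single arrays left out (-0.018 without wild type array 4, to 0.07). The cause was not tested. Same-numbered arrays deviated together in some pairs only (r from -0.321 to 0.389), so the numbers were treated as names; with the replicate block Cd86 was 1.11, Icosl 0.57 and Cd80 0.97. The alternatives without 2 or 4 arrays and with the dendritic mean were chosen after seeing the data. Slide and background correction were not run as alternatives, since scanner files were not used.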

Other observations

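Other cell types that a liver preparation can hold were measured in the same arrays. Of 7 B cell markers, 1 lay above 0 and 6 below (median -0.07). Cd22, an inhibitory lectin of B cells, was the 1 above 0 at 0.54 (SE 0.30); it ran from 5.08 to 6.16 in wild type and 5.69 to 7.38 in autophagy-deficient arrays. The B cell gene Ms4a1 differed by -0.05. Of 10 stellate cell and fibroblast markers 9 lay above 0 (median 0.41), with Col3a1 at 0.58 and the retinol esterifying enzyme Lrat at 0.52. All 5 cholangiocyte markers lay below 0 (median -0.23), with Sox9 at -0.48. Of 8 neutrophil markers 4 lay above 0 and 4 below (median -0.02), and the calprotectin gene S100a8 differed by -0.07. No gene of these 4 lists met the study's rule.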
